A study of Homo sapiens with 12 samples.

Results

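The cadherin and protocadherin genes were examined in control and aggregation cells of the glioblastoma lines U87 and U118. Members were the protein-coding genes whose symbol was CDH or PCDH followed by a number, or PCDH followed by A, B or G, and 89 of the 58174 genes in the deposited tables met this rule. They comprised 5 type I classical cadherins, 13 type II classical cadherins, 5 other cadherins, 13 single protocadherins, and the 15 alpha, 16 beta and 22 gamma genes of the clustered protocadherins. A further 11 matching genes were not protein-coding and were left out. Levels were measured by mRNA-seq in U-87 MG and U-118 MG cells, 2 established lines grown from human glioblastoma, with 3 libraries in each of 4 groups, 12 in all. The samples are labelled sensitive and resistant, and the study names the same cells control and aggregation cells. Both kinds of cell came from CD133- CD15- cells held in serum-containing medium with BMP2, a factor used to keep them differentiated. The aggregation cells emerged after prolonged exposure to temozolomide (TMZ, a DNA-alkylating drug) at 50 μM, and take their name from the clumps in which they grow. Each group therefore comes from 1 cell line in culture, and the labels do not say whether the libraries of a group came from separate cultures, so the p-values measure only the spread between these samples.

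Cadherins are calcium-dependent adhesion proteins of the plasma membrane. Classical cadherins bind like cadherins on a neighbouring cell and are tied to the actin cytoskeleton by catenins, and glial and mesenchymal cells typically carry N-cadherin, the product of CDH2, where epithelia carry E-cadherin, the product of CDH1. Protocadherins have related outer domains but do not join the classical catenin complex. The clustered protocadherins lie in tandem on chromosome 5, each with its own variable exon and promoter, and in neurons each cell switches on a different small set of them. In the alpha and gamma clusters every variable exon is spliced to constant exons shared by the whole cluster, whereas beta genes have no shared exons. In the GENCODE 29 annotation of GRCh38 the alpha genes span chr5:140786136-141012347, the beta genes chr5:141051135-141249365 and the gamma genes chr5:141330571-141512981.

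The deposited values are length-corrected transcript abundances (TPM), which sum to 1000000 in each library, so that no read depth can be recovered and a value near 0 has no counting interval. Among the members, 2 (PCDH8 and PCDHB1) were listed at 0 in all 12 libraries, and 41 reached 1 TPM in no library. The summed level of the 89 members was 198 ± 25.9 TPM in U87 control and 195 ± 16.6 TPM in U87 aggregation cells, 435 ± 33.2 TPM in U118 control and 203 ± 45.3 TPM in U118 aggregation cells (mean ± SD, n = 3 here and throughout). Mitochondrially encoded genes held 7.42% to 29.9% of the TPM of a library. Their share was 16.9%, 12.9% and 16.5% in U87 control and 22.2%, 23.6% and 23.7% in U87 aggregation cells, without overlap. In U118 it was 7.42%, 8.55% and 19.7% in control and 13.2%, 29.9% and 26.1% in aggregation cells. U118 aggregation replicate 1 stood apart from the other libraries of its group, with 24 members at 1 TPM or more against 10 in each of replicates 2 and 3, and a mitochondrial share of 13.2% against 29.9% and 26.1%. Across 16382 genes the U118 aggregation libraries ranked genes more like the U87 libraries (Spearman's rho 0.895 to 0.913) than like the U118 control libraries (rho 0.808 to 0.839), and over the 87 members not at 0 everywhere the group means gave rho 0.803 against U87 control and 0.663 against U118 control. These correlations describe the libraries and carry no test. Whether the U118 aggregation libraries come from the line their label names was not tested, and each U118 change and each difference between the lines below rests on that label. Mesenchymal-type glioma markers (VIM, CD44, FN1 and CHI3L1) summed to between 4870 and 10611 TPM in every library. VIM alone was at 4425 TPM or more, whereas CHI3L1 was at 1.14 to 5.88 TPM in the U118 libraries. The 6 glial markers summed to between 6.68 and 26.0 TPM and were mixed. AQP4 was listed at 0 throughout and SOX2 in both U87 groups, and GFAP and S100B stayed under 1 TPM. NES was at 5.76 to 24.1 TPM in every library, and OLIG2 at 1.45 to 4.45 TPM in U87. Among the mesenchymal-type markers FN1, which encodes fibronectin, moved in opposite directions. It was at 74.0, 68.2 and 77.9 TPM in U87 control and 973, 785 and 909 TPM in U87 aggregation cells (log2 fold change 3.58, SE 0.097, adjusted p = 8.59e-06). In U118 it was at 2754, 3309 and 3879 TPM in control and 334, 78.4 and 83.8 TPM in aggregation cells (log2 fold change -4.65, SE 0.50, adjusted p = 9.28e-05). Its part in the cadherin results was not tested.

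Differences between aggregation and control cells were tested with limma on log2(TPM + 1) within each line, over all genes at 1 TPM or more in at least 3 of the 6 libraries, with p-values adjusted over all genes tested. A gene was called when its adjusted p was under 0.05 and its log2 fold change was 1 or more in either direction, and fold changes on this scale understate those of low genes. The filter admitted 24 members in U87 and 39 in U118. In U118, 15 of the 39 passed only through the control libraries and had to differ, and all 15 were called. In U87, 4 of the 24 passed only through the aggregation libraries, PCDH15 among them, and 1 only through the control libraries, CDH23, so both U87 calls are of genes admitted by the group in which they were high. The counts of called members below therefore describe the family and support nothing further.

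In U87, 1 member was called higher (PCDH15) where 3.03% of all genes were, and 1 was called lower (CDH23) where 7.79% of all genes were. Without the fold threshold 10 members passed in the higher direction (9.43% of all genes) and 2 in the lower (29.7% of all genes). The median log2 fold change was 0.44 for the members tested and -0.24 for all genes tested. The 3 aggregation libraries lay above all 3 control libraries for 12 of the 24 members (13.6% of all genes) and below them for 3 (39.8% of all genes). In U118, 1 member was called higher (PCDHGA9) where 8.64% of all genes were, and 25 members were called lower where 26.6% of all genes were. The median was -1.38 for the 39 members tested and -0.52 for all genes tested, so the whole transcriptome of U118 leaned downward on the TPM scale. Aggregation libraries lay above all control libraries for 3 of the 39 members (15.7% of all genes) and below them for 25 (42.9% of all genes). When each library was rescaled to the median ratio of its genes, the all-gene medians moved to -0.016 in U87 and -0.045 in U118. The calls then became 2 higher and 0 lower in U87 (4.77% and 3.92% of all genes, with 3 members lower at an unadjusted p under 0.05 in limma) and 2 higher and 20 lower in U118 (14.7% and 13.1% of all genes). Without U118 aggregation replicate 1, the U118 calls were 1 higher and 28 lower.

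Among the type I classical cadherins, CDH2 (ENSG00000170558, chr18:27950966-28177446), which encodes N-cadherin, was the most abundant member of U118 control cells and fell in U118 aggregation cells. Its level was 89.3, 99.0 and 113 TPM in the U118 control libraries and 49.1, 27.8 and 30.0 TPM in the aggregation libraries, with no overlap (log2 fold change -1.51, SE 0.26, adjusted p = 0.00135). The fall stayed past the adjusted p but not past the fold threshold after median-ratio scaling (log2 fold change -0.96, adjusted p = 0.00257). In U87, CDH2 was at 17.7, 25.8 and 23.3 TPM in control and 23.0, 19.3 and 23.9 TPM in aggregation cells. The groups overlapped, the log2 fold change was -0.0024 (SE 0.16, adjusted p = 0.991), and its sign turned under median-ratio scaling (0.25). The U118 change was lower than the U87 change by a difference of -1.51 on the log2 scale (SE 0.31, adjusted p = 0.00209). That difference was past both thresholds under median-ratio scaling as well (-1.26).

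CDH3, which encodes P-cadherin, passed the filter in U87 only. It was at 8.20, 6.95 and 7.93 TPM in U87 control and 3.50, 5.29 and 3.56 TPM in U87 aggregation cells, and its log2 fold change of -0.78 (SE 0.18, adjusted p = 0.0141) passed the adjusted p but not the fold threshold. All 3 U87 aggregation values lay below the control values. In U118, CDH3 was at 0.152, 0.0646 and 0.0186 TPM in control and 0.720, 0.276 and 0.423 TPM in aggregation cells, under the filter, with all 3 aggregation values above the control values. The change therefore differed between the lines by 1.22 (SE 0.25, adjusted p = 0.00230). CDH1, which encodes E-cadherin, stayed under 1 TPM in every library, at 0.432, 0.930 and 0.309 TPM in U87 control, 0.115, 0.298 and 0.151 TPM in U87 aggregation, 0.0282, 0.0524 and 0.0645 TPM in U118 control and 0.164, 0.126 and 0.765 TPM in U118 aggregation cells, and was not tested. CDH4 and CDH15, which encode R-cadherin and M-cadherin, also stayed under 1 TPM in every library.

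The type II cadherins split into genes seen in U118 control cells alone and genes seen in several groups. In U118, 4 of the 6 tested were called lower (CDH6, CDH7, CDH10 and CDH18), beside 26.6% of all genes. CDH6, CDH7 and CDH10 passed the filter through the control libraries alone and had to differ. CDH18 (ENSG00000145526, chr5:19472951-20575873), a cadherin best known from the nervous system, was at 13.5, 15.9 and 18.0 TPM in U118 control and 1.09, 0.556 and 0.682 TPM in U118 aggregation cells (log2 fold change -3.24, SE 0.24, adjusted p = 8.4e-06). In U87 its level was 0.939, 2.21 and 1.49 TPM in control and 3.89, 2.48 and 3.41 TPM in aggregation cells, a change of the opposite sign that passed the adjusted p but not the fold threshold (log2 fold change 0.76, SE 0.23, adjusted p = 0.0378). The aggregation values of U87 lay above all its control values, and those of U118 below all of theirs. The difference between the lines was -4.0 (SE 0.32, adjusted p = 8.92e-07). It was the largest in size among the members at the pseudocount of 1. With a pseudocount of 0.1 it was -5.30, and PCDH10 (-6.27), PCDH18 (-6.01), PCDHB15 (-5.94), PCDH15 (-5.68) and PCDHGA3 (-5.42, not called at that setting) were larger in size.

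CDH6, which encodes K-cadherin, was at 3.67, 5.88 and 4.99 TPM in U118 control and 0.0256, 0.0895 and 0.0455 TPM in U118 aggregation cells (log2 fold change -2.45, SE 0.20, adjusted p = 1.76e-05), and was listed at 0 in all 6 U87 libraries. CDH7 was at 2.27, 2.73 and 2.35 TPM and 0.0177, 0.0235 and 0.392 TPM in the same groups (log2 fold change -1.60, SE 0.19, adjusted p = 0.000173), and was at or near 0 in U87. CDH10 was at 1.25, 1.41 and 2.28 TPM in U118 control cells and was listed at 0 in every library of U118 aggregation cells and of U87, so that no fold change is given (adjusted p = 0.000343). These 3 genes were thus seen only in the U118 control libraries, apart from values of at most 0.392 TPM elsewhere. CDH8 followed the same order at a level below the filter, at 0.683, 0.996 and 0.744 TPM in U118 control and 0.0187, 0 and 0 TPM in U118 aggregation cells.

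CDH24 (ENSG00000139880, chr14:23047062-23057538) was at 14.8 TPM or more in every library and was higher in the aggregation libraries of both lines. It was at 31.7, 30.9 and 33.2 TPM in U87 control and 44.9, 44.9 and 41.2 TPM in U87 aggregation cells (log2 fold change 0.44, SE 0.087, adjusted p = 0.00742). In U118 it was at 14.8, 16.1 and 14.8 TPM in control and 37.9, 27.4 and 29.8 TPM in aggregation cells (log2 fold change 0.997, SE 0.22, adjusted p = 0.00503). The groups did not overlap in either line, the adjusted p was passed in both, and the fold threshold was missed in both, in U118 by a margin smaller than its SE. Under median-ratio scaling the U118 change was called (1.53, adjusted p = 0.000136). It was also called without U118 control replicate 2 or aggregation replicates 2 or 3 (1.04, 1.09 and 1.03). The difference between the lines missed the threshold (0.56, adjusted p = 0.0521).

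CDH11, which encodes OB-cadherin and is typical of mesenchymal cells, was seen in U118 only. It was at 15.3, 19.4 and 15.6 TPM in U118 control and 26.0, 9.52 and 10.1 TPM in U118 aggregation cells, whereas in U87 it was at most 0.0984 TPM. The highest U118 aggregation value was that of replicate 1, the groups overlapped (log2 fold change -0.27, SE 0.36, adjusted p = 0.549), and the sign turned under median-ratio scaling (0.25). Without that library both remaining aggregation values lay below all control values, and the change passed the adjusted p but not the fold threshold (-0.71, adjusted p = 0.00785). CDH5, which encodes VE-cadherin of endothelium, was listed at 0 in all 6 U118 libraries and at most 0.0740 TPM in U87. The remaining type II genes (CDH9, CDH12, CDH19, CDH20 and CDH22) reached at most 0.165 TPM, in CDH12.

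Of the 5 other cadherins, CDH13 was abundant in all groups and CDH23 was called in U87. CDH13 encodes T-cadherin, which is held to the membrane by a lipid anchor and lacks the domain that binds catenins. Its level was 21.4, 24.8 and 58.1 TPM in U87 control, 19.7, 14.9 and 25.3 TPM in U87 aggregation, 43.8, 47.6 and 51.8 TPM in U118 control and 56.2, 46.3 and 41.9 TPM in U118 aggregation cells. U87 control replicate 3 was far above the other U87 libraries, and neither line passed the test (U87 log2 fold change -0.66, SE 0.38, adjusted p = 0.209, and U118 log2 fold change 0.0059, SE 0.21, adjusted p = 0.984). Without U87 control replicate 3 the U87 value was -0.23, and under median-ratio scaling the U118 value was 0.56 (adjusted p = 0.0387), past the adjusted p alone. CDH23, known as a tip-link protein of inner-ear hair cells, was at 2.73, 1.95 and 1.71 TPM in U87 control and 0.401, 0.566 and 0.412 TPM in U87 aggregation cells, without overlap (log2 fold change -1.09, SE 0.16, adjusted p = 0.00233). The call was lost without U87 control replicate 1 (log2 fold change -0.96) and under median-ratio scaling (-0.96), in both cases by the fold threshold. In U118, CDH23 was at 0.0225, 0.0257 and 0.0207 TPM in control and 0.334, 0.142 and 0.476 TPM in aggregation cells, so its change differed between the lines by 1.45 (SE 0.20, adjusted p = 0.000118). CDH16, CDH17 and CDH26 reached at most 0.465 TPM, in CDH16.

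The summed level of the single protocadherins was highest in U118 control cells, where 3 of them (PCDH7, PCDH10 and PCDH18) had a mean of 1 TPM or more. PCDH1, PCDH12, PCDH15 and PCDH17 were highest in other groups. The sum over all 13 genes was 39.3, 48.6 and 48.2 TPM in the U118 control libraries and 3.15, 2.18 and 2.17 TPM in the U118 aggregation libraries, beside 2.15 ± 0.472 TPM in U87 control and 4.94 ± 0.906 TPM in U87 aggregation cells. The 3 members tested in U118 were all called lower, beside 26.6% of all genes, and all 3 passed the filter through the control libraries alone. PCDH7 (ENSG00000169851, chr4:30720415-31146805), also known as NF-protocadherin or BH-protocadherin, was at 16.7, 20.7 and 18.3 TPM in U118 control and 0.568, 0.518 and 0.441 TPM in U118 aggregation cells (log2 fold change -3.69, SE 0.22, adjusted p = 2.28e-06). It was at 0.919, 1.54 and 1.09 TPM in U87 control and 0.191, 0.201 and 0.191 TPM in U87 aggregation cells, below the U87 filter but again without overlap. The U118 change was lower than the U87 change by -2.83 (SE 0.22, adjusted p = 6.97e-07).

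PCDH10 (ENSG00000138650, chr4:133149315-133208606), whose product is also called OL-protocadherin, was at 11.9, 14.4 and 12.4 TPM in U118 control and 0.135, 0.0281 and 0.0851 TPM in U118 aggregation cells (log2 fold change -3.68, SE 0.20, adjusted p = 1.73e-06). Apart from 1 library at 0.0164 TPM it was listed at 0 in U87. PCDH18 (ENSG00000189184, chr4:137518918-137532494), which lies on the same arm of chromosome 4, was at 7.86, 11.0 and 14.5 TPM and 0.0248, 0.0479 and 0.0355 TPM in the U118 groups (log2 fold change -3.51, SE 0.24, adjusted p = 6.62e-06), and at most 0.0444 TPM in U87. In these 3 genes the U118 control values were separated from every other library of the series.

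PCDH15 (ENSG00000150275, chr10:53802771-55627942) had changes of opposite sign in the lines. Like CDH23 it encodes a tip-link protein of hair cells. It rose in U87, from 0.271, 0.590 and 0.786 TPM in control to 4.30, 3.44 and 2.81 TPM in aggregation cells (log2 fold change 1.55, SE 0.19, adjusted p = 0.00118), with a range of 1.41 to 1.66 when each U87 library was left out in turn, though no control library reached 1 TPM and the aggregation libraries alone admitted it to the test. In U118 it was at 1.29, 0.605 and 0.761 TPM in control and 0.00802, 0 and 0.0151 TPM in aggregation cells, under the filter. The difference between the lines was -2.43 (SE 0.25, adjusted p = 9.6e-06). Its hair-cell partner CDH23 had the opposite pattern in U87, where it was called lower.

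The other single protocadherins were low. PCDH17 was at 0.0600, 0.0616 and 0.0983 TPM in U87 control and 0.656, 0.567 and 0.559 TPM in U87 aggregation cells, and at 0.0105, 0.0420 and 0.0386 TPM and 0.446, 0.306 and 0.345 TPM in the U118 groups, with the aggregation libraries higher in both lines but under the filter in each. PCDH12 was at 0.0922, 0.283 and 0.0933 TPM in U118 control and 1.07, 0.639 and 0.503 TPM in U118 aggregation cells. PCDH1 was at most 0.220 TPM, with the aggregation values above all control values in both lines but under the filter. PCDH9 lay between 0.163 and 0.768 TPM in all 12 libraries. PCDH11X and its near-identical copy on the Y chromosome share reads and are uncertain, and neither passed the filter. PCDH19 and PCDH20 reached at most 0.00943 and 0.185 TPM.

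**Figure D1:**
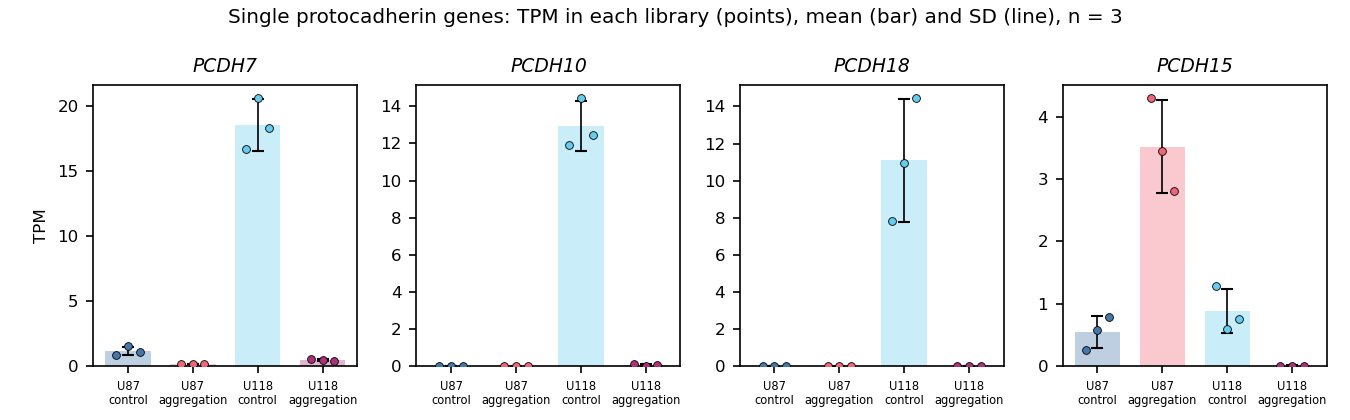
TPM of 4 single protocadherin genes in the 12 libraries, with points for libraries, bars for group means and lines for the SD (n = 3). PCDH7, PCDH10 and PCDH18 reach between 7.86 and 20.7 TPM in U118 control libraries and are at most 1.54 TPM elsewhere, and PCDH15 is highest in U87 aggregation cells.

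Most beta genes tested had a change above 0 in U87, none of them called, and below 0 in U118. There 10 of 11 were called lower, beside 26.6% of all genes. The summed level of the cluster was 14, 15.3 and 12.6 TPM in U87 control and 25.3, 23.1 and 23.6 TPM in U87 aggregation cells, and 57.8, 60.7 and 66.1 TPM in U118 control and 8.59, 7.76 and 9.38 TPM in U118 aggregation cells. The sums of the groups did not overlap in either line, and the highest and lowest library of a group differed by little beside the distance between groups. In U87, 7 of the 8 beta genes tested had a log2 fold change above 0. Upward, 5 passed the adjusted p (PCDHB6, PCDHB10, PCDHB13, PCDHB14 and PCDHB16), beside 9.43% of all genes. All 5 were under the fold threshold, so none was called by limma (6 had an unadjusted p under 0.05). PCDHB6, PCDHB7 and PCDHB10 passed the U87 filter through the aggregation libraries alone. In U118, PCDHB2, PCDHB5, PCDHB8, PCDHB12, PCDHB13, PCDHB15 and PCDHB16 passed the filter through the control libraries alone and had to differ. All 11 tested there had a log2 fold change below 0 and 10 were called lower, beside 26.6% of all genes. That count is therefore a description. The exception was PCDHB9, at 3.57, 4.71 and 6.77 TPM in U118 control and 2.3, 1.95 and 3.67 TPM in U118 aggregation cells (log2 fold change -0.72, SE 0.28, adjusted p = 0.0575). Under median-ratio scaling 9 of the 11 were called, beside 13.1% of all genes, with PCDHB10 falling short of the fold threshold (-0.94).

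PCDHB15 had the lowest log2 fold change of the cluster in U118, at 7.77, 8.32 and 8.24 TPM in control and 0.181, 0.0581 and 0.0485 TPM in aggregation cells (log2 fold change -3.06, SE 0.19, adjusted p = 3.28e-06). PCDHB5 was at 7.76, 7.57 and 9.77 TPM in U118 control and 0.358, 0.353 and 0.335 TPM in U118 aggregation cells (log2 fold change -2.79, SE 0.20, adjusted p = 8.35e-06). PCDHB8 was at 8.37, 9.0 and 10.4 TPM and 0.918, 0.559 and 0.767 TPM in the same groups (log2 fold change -2.55, SE 0.21, adjusted p = 1.87e-05). These were the 3 most abundant beta genes of U118 control cells, and their groups lay far apart. PCDHB16 was at 6.90, 6.51 and 8.67 TPM in U118 control and 0.730, 0.968 and 0.783 TPM in U118 aggregation cells (log2 fold change -2.19, SE 0.21, adjusted p = 4.69e-05), and in U87 at 2.68, 2.54 and 2.08 TPM in control and 5.34, 3.65 and 4.27 TPM in aggregation cells (log2 fold change 0.65, SE 0.17, adjusted p = 0.0225). PCDHB10 was at 0.695, 0.660 and 0.874 TPM in U87 control and 2.15, 1.96 and 1.64 TPM in U87 aggregation cells (log2 fold change 0.74, SE 0.14, adjusted p = 0.00566), and in U118 at 3.62, 3.72 and 4.21 TPM and 1.04, 1.10 and 0.750 TPM (log2 fold change -1.31, SE 0.19, adjusted p = 0.000630). For both genes the aggregation values lay above all control values in U87 and below all control values in U118.

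PCDHB13 was at 1.43, 1.45 and 1.20 TPM in U87 control and 3.01, 2.40 and 2.72 TPM in U87 aggregation cells (log2 fold change 0.65, SE 0.14, adjusted p = 0.00999), and in U118 fell from 4.22, 4.45 and 4.99 TPM to 0.891, 0.560 and 0.807 TPM (log2 fold change -1.67, SE 0.20, adjusted p = 0.000160). PCDHB14 gave 1.17, 1.54 and 0.791 TPM and 3.06, 2.48 and 2.57 TPM in the U87 groups (log2 fold change 0.78, SE 0.17, adjusted p = 0.0116) and 4.17, 4.17 and 4.15 TPM and 1.13, 0.993 and 0.829 TPM in the U118 groups (log2 fold change -1.38, SE 0.19, adjusted p = 0.000403). PCDHB2, PCDHB7 and PCDHB12 were also called lower in U118, with log2 fold changes of -1.92, -1.43 and -1.22. PCDHB2 was uneven among the U118 control libraries, at 4.40, 5.14 and 1.08 TPM, yet all 3 lay above its aggregation values of 0.0736, 0.0875 and 0.0873 TPM. PCDHB3, PCDHB4 and PCDHB11 were under 1 TPM in every library and were not tested. The change differed between the lines for 11 of the 12 beta genes tested, each lower in U118, by -1.17 (PCDHB9) to -3.22 (PCDHB15). Across all members 26 differences were called lower in U118 (18.5% of all genes) and 2 higher (12% of all genes).

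**Figure D2:**
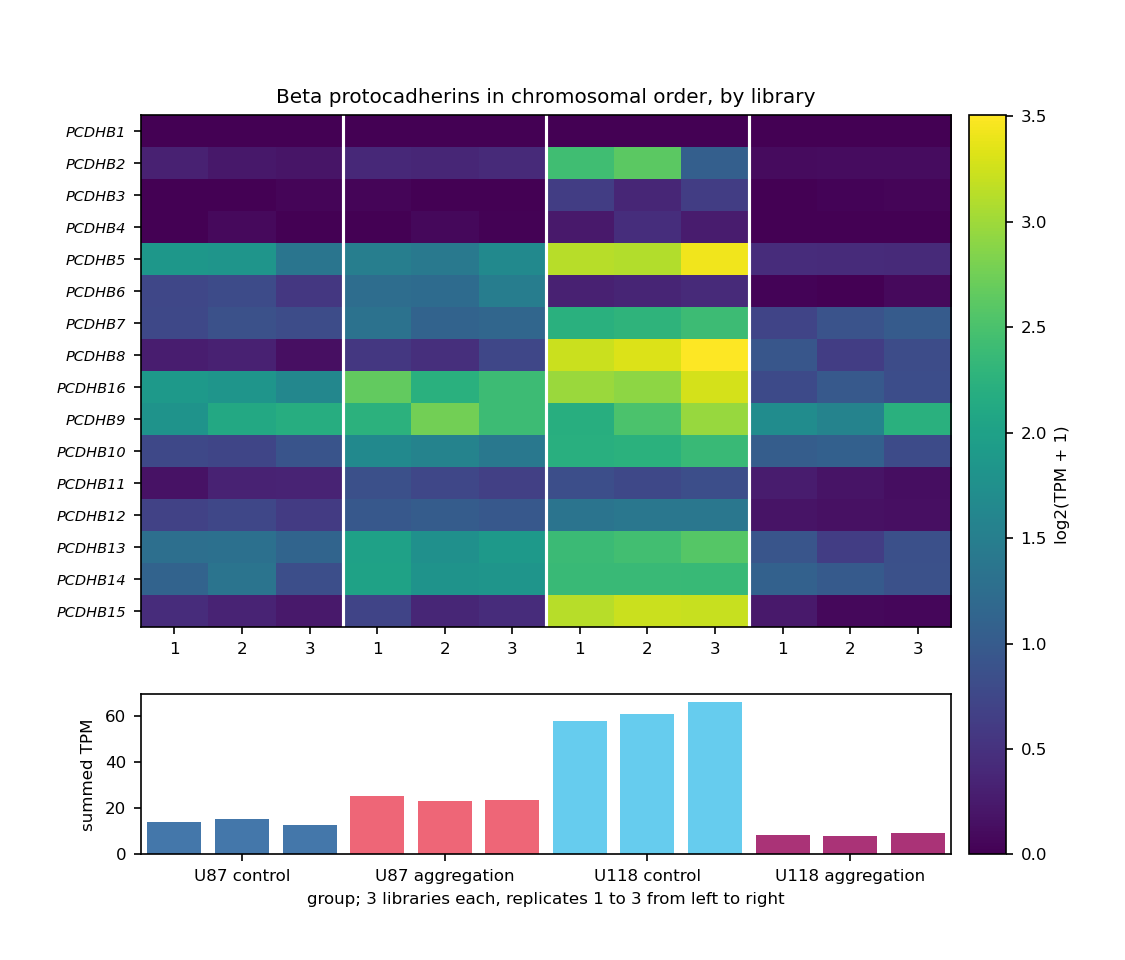
Level of the 16 beta protocadherin genes as log2(TPM + 1) in the 12 libraries, with genes in chromosomal order from top to bottom, and below it the summed TPM of the cluster in each library. The summed level is between 57.8 and 66.1 TPM in U118 control and between 7.76 and 9.38 TPM in U118 aggregation libraries, and higher in U87 aggregation than in U87 control libraries.

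The promoters of the beta genes carry a shared sequence, shown here because 10 of the 11 beta genes tested in U118 were called lower (26.6% of all genes). RefSeq promoter windows of 300 bases (250 before and 50 after each annotated start, GRCh38.p14) were matched for 70 of the 89 members, 14 of them beta genes. The 70 members had 90 windows, since some had more than 1. The 9 letters GGTGGCGCT, searched on both strands, contain the shorter motif CGCT. They were present in a window of 13 of the 14 beta genes and of 0 of 13 alpha, 0 of 20 gamma and 0 of 23 other members. Counted by window rather than by gene, they were present in 0.501% of 35116 promoters of all genes. The beta window without these letters was that of PCDHB1, the beta gene listed at 0 in every library. CGCT alone was present in 70.0% of all promoters. The letters were chosen as those most often shared by the beta windows, so their count among beta genes is a description. Stretches of 41 bases are given for 4 beta genes called lower in U118 and for PCDHB9, which was not called, with the shared letters in capitals. All lie on the plus strand of chromosome 5 upstream of the annotated start.
PCDHB15: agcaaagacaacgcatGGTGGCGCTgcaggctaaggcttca
PCDHB16: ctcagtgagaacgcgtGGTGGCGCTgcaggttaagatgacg
PCDHB13: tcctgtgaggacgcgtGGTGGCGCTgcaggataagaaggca
PCDHB10: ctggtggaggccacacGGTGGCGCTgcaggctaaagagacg
PCDHB9: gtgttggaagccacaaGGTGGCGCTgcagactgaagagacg
They occupy chr5:141245309-141245349 (PCDHB15), chr5:141182305-141182345 (PCDHB16), chr5:141213860-141213900 (PCDHB13), chr5:141192294-141192334 (PCDHB10) and chr5:141187069-141187109 (PCDHB9). The called genes shown and PCDHB9 carried the same 9 letters, which were chosen for being shared, and only stretches holding them are shown. Whether other letters of the windows separate PCDHB9 from the called genes was not tested.

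The gamma cluster was the most abundant of the 3 clusters, and its single genes varied widely within groups. Its summed level was 84.2, 69.9 and 85.8 TPM in U87 control and 50.4, 79.2 and 84.6 TPM in U87 aggregation cells, which overlapped. In U118 it was 112, 128 and 119 TPM in control and 70.3, 50.1 and 54.1 TPM in aggregation cells, without overlap. Each gamma gene shares exonic bases with the 21 others (27.6% to 64.4% of its exonic length, median 43.9%), and reads in the constant exons cannot be assigned to a gene, so the split of the total among gamma genes depends on how the authors' counting divided such reads. Among gamma genes whose group mean reached 1 TPM, the highest library was at least 3 times the lowest for 5 of 12 in U87 control, 7 of 14 in U87 aggregation, 6 of 17 in U118 control and 4 of 9 in U118 aggregation cells. Over all genes the same spread was found in 5.71%, 2.36%, 3.37% and 12.3%, and among beta genes in 1 of 25 such values, PCDHB2 in U118 control cells.

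Examples of this spread fell in every group. PCDHGA3 was at 0.213, 17.2 and 19.1 TPM in U87 aggregation and 9.49, 1.81 and 0.614 TPM in U118 control cells, with U87 control at 0.273, 0.223 and 1.39 TPM and U118 aggregation at 1.29, 0.156 and 0.172 TPM. PCDHGA7 was at 17.2, 0.185 and 0.640 TPM in U87 control and 5.71, 0.171 and 0.132 TPM in U118 aggregation cells, high in 1 library of each group, and was called lower in U118 without aggregation replicate 1 (-1.17). PCDHGA5 was at 1.05, 13.3 and 1.06 TPM in U118 control cells, with replicate 2 alone high. In U118 aggregation cells PCDHGA2 (5.11, 0.149 and 0.129 TPM), PCDHGB3 (3.54, 0.136 and 0.133 TPM) and PCDHGB4 (7.28, 0.116 and 0.114 TPM) were likewise high in replicate 1, the library that stood apart, and PCDHGA2 was called lower without it (-1.45). PCDHGC4 was at 4.65, 9.71 and 0.286 TPM in U118 control and 0.0659, 0.625 and 9.99 TPM in U87 aggregation cells.

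**Figure D3:**
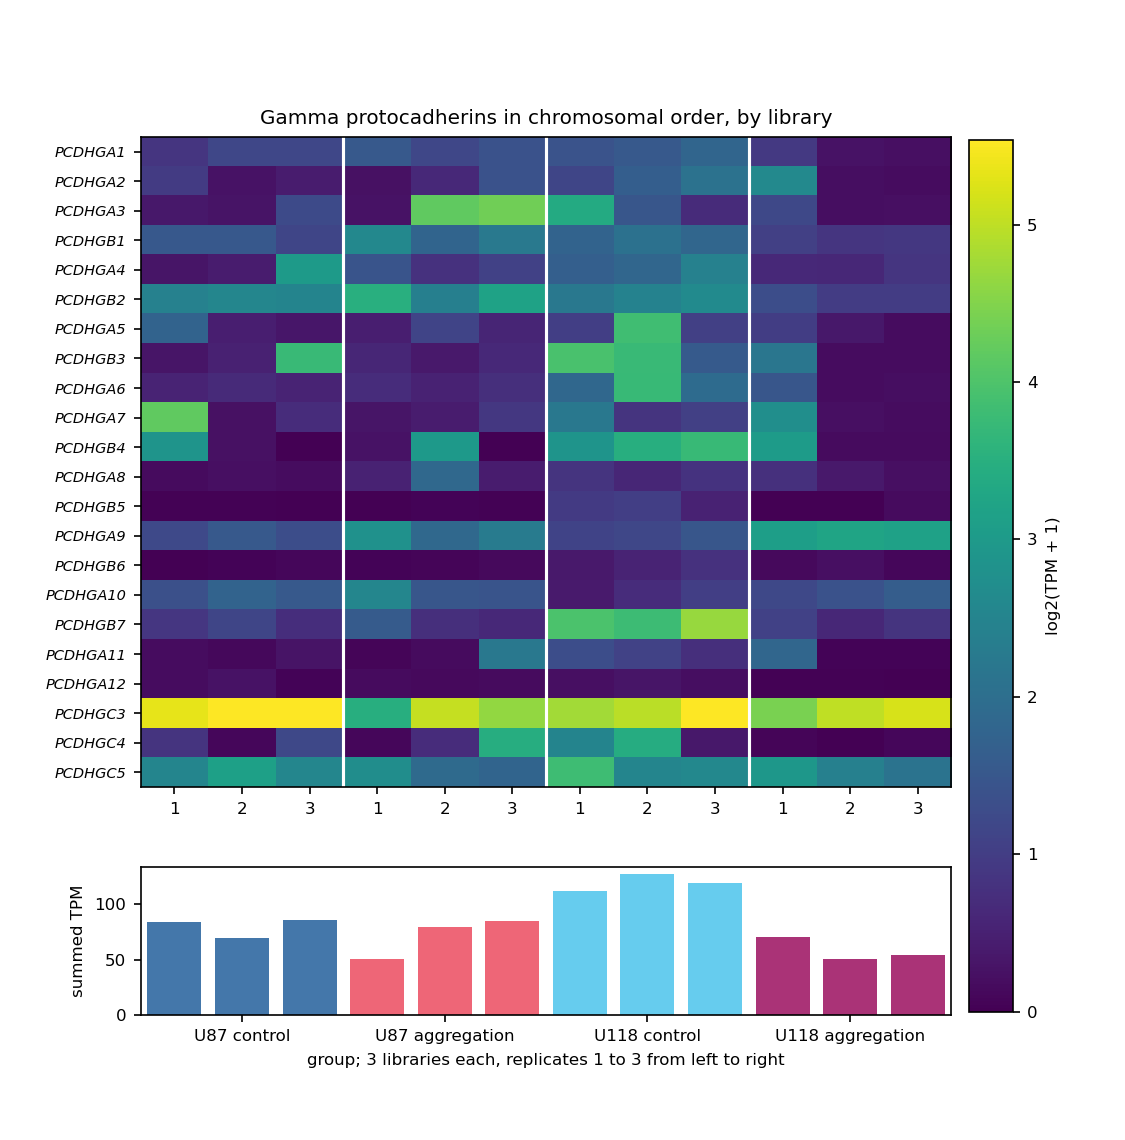
Level of the 22 gamma protocadherin genes as log2(TPM + 1) in the 12 libraries, with genes in chromosomal order from top to bottom, and below it the summed TPM of the cluster in each library. PCDHGC3 is high in all 12 libraries, PCDHGA9 is at 7.62 to 8.41 TPM in all 3 U118 aggregation libraries, and several genes are high in a single library of a group.

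In U118, 7 of the 17 gamma genes tested fell (PCDHGA1, PCDHGA4, PCDHGA6, PCDHGB2, PCDHGB3, PCDHGB4 and PCDHGB7) and 1 rose (PCDHGA9), beside 26.6% and 8.64% of all genes, and under median-ratio scaling 4 of the 17 were called lower beside 13.1% of all genes. PCDHGB7 (ENSG00000254122, chr5:141417645-141512979) was at 14.6, 12.9 and 24.7 TPM in U118 control and 1.09, 0.542 and 0.789 TPM in U118 aggregation cells (log2 fold change -3.31, SE 0.29, adjusted p = 2.46e-05), and in U87 at 0.826, 1.22 and 0.648 TPM and 2.0, 0.674 and 0.560 TPM. It made up 14.6% ± 5.49 of the gamma total in U118 control and 1.36% ± 0.251 in U118 aggregation cells. PCDHGB2 was at 3.63, 4.45 and 5.28 TPM and 1.48, 0.972 and 0.964 TPM in the U118 groups (log2 fold change -1.35, SE 0.22, adjusted p = 0.00104), and at 4.41, 4.83 and 4.61 TPM and 10.2, 4.28 and 8.18 TPM in the U87 groups, which overlapped (log2 fold change 0.54, SE 0.28, adjusted p = 0.170). PCDHGA1 fell from 1.68, 1.91 and 2.52 TPM to 0.892, 0.202 and 0.179 TPM (log2 fold change -1.12, SE 0.23, adjusted p = 0.00378) and PCDHGA4 from 2.18, 2.57 and 4.38 TPM to 0.555, 0.540 and 0.805 TPM (log2 fold change -1.27, SE 0.24, adjusted p = 0.00212). PCDHGA1 and PCDHGA4 passed the U118 filter through the control libraries alone and had to differ, so the count of 7 is a description. Under median-ratio scaling PCDHGB2 (-0.98), PCDHGA1 (-0.90) and PCDHGA4 (-0.95) fell short of the fold threshold.

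The calls of 3 gamma genes were less firm. PCDHGB3 was at 14.5, 12.4 and 1.97 TPM and PCDHGB4 at 6.29, 10.1 and 12.4 TPM in U118 control cells (adjusted p = 0.0251 and 0.0243). Each call was lost when U118 control replicate 2, U118 aggregation replicate 2 or U118 aggregation replicate 3 was left out, PCDHGB3 also without U118 control replicate 1 and PCDHGB4 also without U118 control replicate 3, with log2 fold changes of -3.00 to -1.81 and -3.21 to -1.76 over the 6 fits without a U118 library and adjusted p up to 0.103 and 0.118. PCDHGA6, at 2.58, 12.3 and 2.82 TPM in U118 control and 1.79, 0.136 and 0.152 TPM in U118 aggregation cells (log2 fold change -1.88, SE 0.53, adjusted p = 0.0165), was lost when no filter on low values was applied, as were PCDHGB3 and PCDHGB4.

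PCDHGA9 (ENSG00000261934, chr5:141402932-141512979) was the exception in the cluster and the only member called higher in U118. It rose from 1.16, 1.27 and 1.79 TPM in U118 control to 7.62, 8.41 and 8.05 TPM in U118 aggregation cells (log2 fold change 1.92, SE 0.22, adjusted p = 0.000128), and the call was kept when each U118 library was left out in turn (1.84 to 2.03). Its share of the gamma total was 1.18% ± 0.285 in U118 control and 14.2% ± 3.03 in U118 aggregation cells. In U87 it was at 1.35, 1.90 and 1.47 TPM in control and 5.97, 2.64 and 3.93 TPM in aggregation cells, with no overlap, and passed the adjusted p but not the fold threshold (log2 fold change 0.96, SE 0.25, adjusted p = 0.0220). It was called there without control replicate 2 or aggregation replicate 2 (1.05 and 1.19). Under median-ratio scaling it was called higher in U87 too (1.15, adjusted p = 0.00500). Of its exonic bases, 45.9% are shared with the other gamma genes. PCDHGA10, which lies downstream, was at 0.329, 0.630 and 1.04 TPM in U118 control and 1.31, 1.63 and 2.12 TPM in U118 aggregation cells (log2 fold change 0.70, SE 0.22, adjusted p = 0.0245), past the adjusted p alone.

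The promoter window of PCDHGA9 is shown because it was called against the direction of the cluster, beside that of PCDHGA1, which was called lower. Both hold the 9 letters GCGCCGCTG, which also contain CGCT. These were present in a window of 10 of 20 gamma genes, 0 of 14 beta genes, 0 of 13 alpha genes and 1 of 23 other members, and in 1.28% of all promoters.
PCDHGA9: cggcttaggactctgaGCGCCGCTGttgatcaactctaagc
PCDHGA1: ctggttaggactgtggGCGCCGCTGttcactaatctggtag
These stretches occupy chr5:141402710-141402750 and chr5:141330399-141330439, with the shared letters in capitals. The letters were chosen as those most often shared by the gamma genes. Their presence in a gene called higher and in a gene called lower is therefore a description. PCDHGA1 also had to differ, since control libraries alone admitted it to the U118 test.

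PCDHGC3 and PCDHGC5 belong to the C-type genes at the end of the cluster, which in neurons are switched on in most cells. PCDHGC3 had the highest mean of the gamma genes in every group, at 39.3, 45.4 and 45.2 TPM in U87 control, 10.1, 32.1 and 23.8 TPM in U87 aggregation, 26.3, 30.1 and 45.5 TPM in U118 control and 20.4, 31.0 and 35.7 TPM in U118 aggregation cells. The U87 aggregation values lay below all control values but missed the threshold (log2 fold change -1.08, SE 0.37, adjusted p = 0.0568), passing it without aggregation replicate 2 (-1.42), and the U118 groups overlapped (log2 fold change -0.22, SE 0.29, adjusted p = 0.551). Its share of the gamma total was 54.8% ± 9.27 in U87 control and 29.5% ± 10.3 in U87 aggregation cells, and 28.4% ± 8.53 in U118 control and 52.3% ± 20.2 in U118 aggregation cells. PCDHGC5 passed in neither line (log2 fold change -0.60, adjusted p = 0.161 in U87, and -0.50, adjusted p = 0.299 in U118). PCDHGB1 passed the adjusted p alone in both lines, upward in U87 (log2 fold change 0.80, SE 0.24, adjusted p = 0.0356) and downward in U118 (log2 fold change -0.95, SE 0.19, adjusted p = 0.00319), and reached the fold threshold without U87 aggregation replicate 2 in U87 and without control replicate 1 or aggregation replicate 1 in U118.

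The alpha cluster was nearly silent. None of its 15 genes reached 1 TPM in any library. The summed level was 2.03, 2.3 and 1.97 TPM in U118 control and 1.02, 0.524 and 0.884 TPM in U118 aggregation cells, and at most 0.130 TPM in any U87 library. The highest values were 0.656 TPM for PCDHA1 and 0.651 TPM for PCDHA5, both in U118 control libraries. PCDHAC2, a C-type alpha gene, was at 0.357, 0.481 and 0.292 TPM in U118 control and 0.0523, 0.125 and 0.0423 TPM in U118 aggregation cells.

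The change between control and aggregation cells differed between the lines for 28 of the 44 members tested, past both thresholds in a limma interaction over the 12 libraries. Of the 44, 8 passed the filter only through U118 control libraries (CDH6, CDH7, CDH10, PCDH10, PCDH18, PCDHB2, PCDHB8 and PCDHB15) and had to differ, and all 8 were called, as was CDH23, admitted by U87 control libraries alone, so the count is a description. The 26 that were lower in U118 included 11 beta genes, 6 gamma genes, 4 single protocadherins, 4 type II cadherins and CDH2, and the 2 that were higher were CDH3 and CDH23. Of the 28, 13 were tested within both lines, and for 11 of these the fitted change was above 0 in U87 and below 0 in U118, though none of the 11 was called in U87. The median difference was -1.68 for members and -0.24 for all genes tested. Of the 28, PCDHB9, PCDHGA3 and PCDHGA6 fell short of a threshold when certain single libraries were left out. Without U118 aggregation replicate 1 the count was 30. In these bulk libraries fewer cells expressing a gene and less RNA per cell cannot be told apart.

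**Figure D4:**
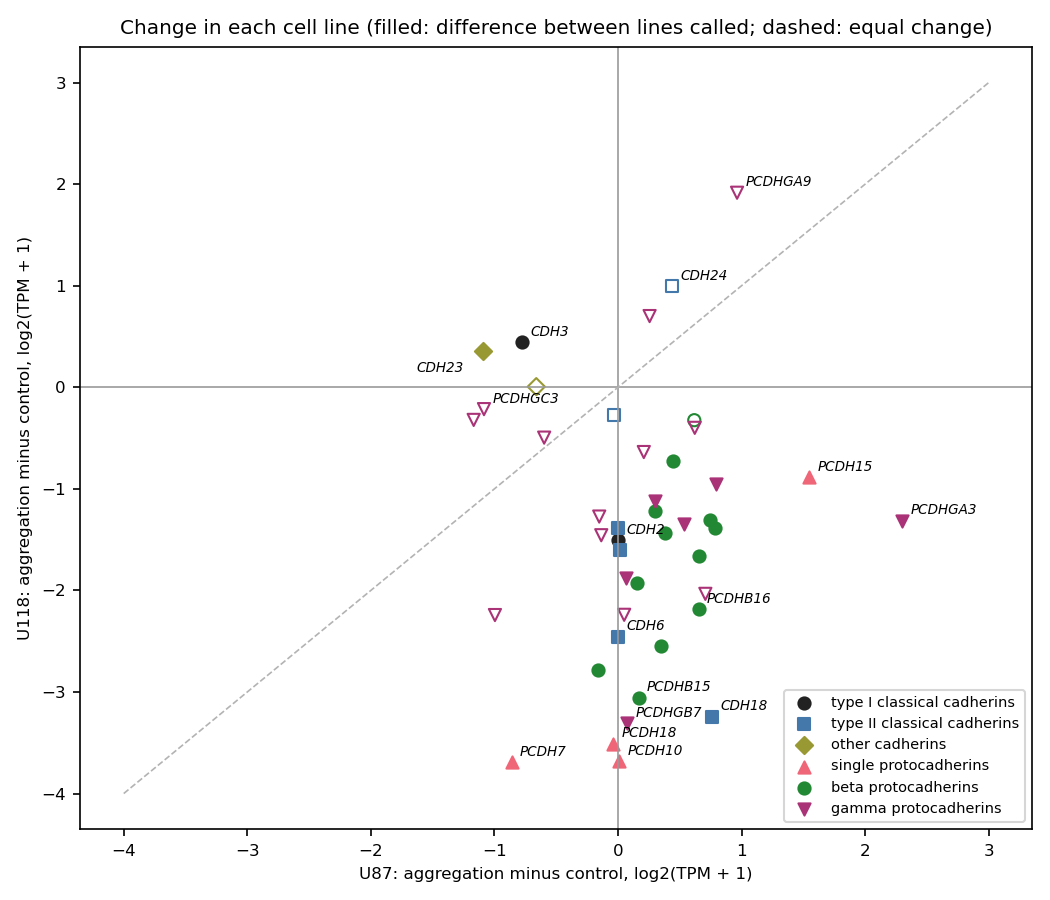
Log2 fold change of aggregation minus control in U118 against that in U87, both on the log2(TPM + 1) scale, for the 44 members tested over the 12 libraries, with filled symbols where the difference between the lines was called and a dashed line where the changes are equal. Beta genes lie between -0.16 and 0.78 in U87 and between -3.06 and -0.32 in U118, and PCDHGA9 is farthest up in U118.

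Genes that work with cadherins were counted from lists of partners. Some passed the filter through a single group and had to differ, so the counts of called genes are descriptions. Of 15 adherens junction partners, 10 were tested in U87, with 1 called lower (7.79% of all genes), and 11 in U118, with 1 called higher and 1 lower (8.64% and 26.6% of all genes). The catenins CTNNA1 (alpha-catenin), CTNNB1 (beta-catenin) and CTNND1 (p120-catenin) were abundant in every library and were called in neither line. CTNNB1 was at 174, 193 and 208 TPM in U87 control and 106, 101 and 102 TPM in U87 aggregation cells, past the adjusted p but not the fold threshold (log2 fold change -0.89, SE 0.083, adjusted p = 0.000375), and at 223, 211 and 174 TPM and 222, 60.9 and 75.4 TPM in the U118 groups (log2 fold change -0.99, SE 0.43, adjusted p = 0.0792), where aggregation replicate 1 lay with the control libraries. CTNNA1 had log2 fold changes of -0.045 in U87 and -0.13 in U118, and CTNND1 of -0.16 and -0.64. CTNND2, a neural catenin of the p120 family, fell in U118 from 28.0, 22.0 and 23.4 TPM to 0.199, 0.0155 and 0 TPM (log2 fold change -4.57, SE 0.22, adjusted p = 1.09e-06) and was at or near 0 in U87. It passed the U118 filter through the control libraries alone and had to differ. The nectins, immunoglobulin-type adhesion proteins of the same junctions, gave NECTIN2 higher in U118 (log2 fold change 1.08, SE 0.23, adjusted p = 0.00473) and NECTIN3 lower in U87 (log2 fold change -1.04, SE 0.33, adjusted p = 0.0411). NECTIN3 was not called under median-ratio scaling or in 5 of the 6 fits without a U87 library, and without U87 control replicate 2 its value was -0.66. NECTIN2 fell short of the fold threshold in U118 when replicate 3 of the control (0.99) or of the aggregation cells (0.93) was left out.

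Of 25 other genes of the cadherin superfamily, 8 were tested in U87 with 0 called by limma (2 higher at an unadjusted p under 0.05), and 9 in U118 with 1 called higher and 4 called lower (8.64% and 26.6% of all genes). DSG2, a desmosomal cadherin, was listed at 0 in all 3 U118 control libraries and was at 15.3, 14.4 and 15.4 TPM in U118 aggregation cells (adjusted p = 1.11e-06), beside 5.14, 10.7 and 6.78 TPM in U87 control and 7.62, 5.61 and 5.93 TPM in U87 aggregation cells. The genes called lower were the giant cadherins FAT1 (-1.20) and FAT4 (-1.22), the planar polarity gene CELSR3 (-1.54) and the calsyntenin CLSTN2 (-2.92). DSG2 passed the U118 filter through the aggregation libraries alone and CLSTN2 through the control libraries alone, so both had to differ. FAT1 and FAT4 were not called under median-ratio scaling.

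Transcription factors known to repress CDH1 were measured in both lines. Of the 10 listed, 8 were tested in each line, 0 were called in U87 by limma (4 higher at an unadjusted p under 0.05), and 3 were called lower in U118, where 26.6% of all genes were. TWIST2 was at 68.4, 58.7 and 54.4 TPM in U118 control cells and listed at 0 in all 3 U118 aggregation libraries (adjusted p = 3.12e-07). It passed the U118 filter through the control libraries alone and had to differ. ZEB2 fell from 32.5, 39.3 and 46.6 TPM to 17.1, 14.9 and 16.5 TPM (log2 fold change -1.22, SE 0.22, adjusted p = 0.00183) and FOXC2 had a log2 fold change of -1.71, and the ZEB2 call was lost under median-ratio scaling. SNAI2 was at 48.3, 68.3 and 51.7 TPM in U87 control and 91.0, 90.2 and 101 TPM in U87 aggregation cells, past the adjusted p alone (log2 fold change 0.75, SE 0.14, adjusted p = 0.00569), and had a log2 fold change of -0.35 in U118 (adjusted p = 0.306). TWIST1 had 0.54 in U87 (adjusted p = 0.0311) and -0.56 in U118 (adjusted p = 0.0752), ZEB1 had -0.065 (adjusted p = 0.834) and -0.65 (adjusted p = 0.127), and SNAI1 had 0.32 in U87 (adjusted p = 0.0864) and was under the filter in U118.

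Genes known to regulate the protocadherin clusters comprised CTCF, the cohesin subunits and loader, and methylation factors. All 11 were tested in both lines. By limma, 0 were called higher in either line, also at an unadjusted p under 0.05, 4 were called lower in U87 (RAD21, SMC1A, SMC3 and STAG1), where 7.79% of all genes were, and 6 in U118 (CTCF, DNMT3B, NIPBL, RAD21, STAG1 and STAG2), where 26.6% of all genes were. CTCF, which binds protocadherin promoters, was at 44.5, 49.2 and 54.4 TPM in U118 control and 28.6, 19.9 and 20.7 TPM in U118 aggregation cells (log2 fold change -1.08, SE 0.22, adjusted p = 0.00385), and at 39.1, 45.3 and 46.1 TPM and 31.6, 27.5 and 31.2 TPM in the U87 groups (log2 fold change -0.52, SE 0.11, adjusted p = 0.00915). RAD21, a cohesin subunit, was at 168, 136 and 126 TPM and 57.6, 35.1 and 37.7 TPM in the U118 groups (log2 fold change -1.72, SE 0.25, adjusted p = 0.000520) and at 53.0, 126 and 60.4 TPM and 33.0, 31.2 and 38.5 TPM in the U87 groups (log2 fold change -1.10, SE 0.31, adjusted p = 0.0295). SMCHD1, a repressor of the clusters, was called in neither line (-0.39, adjusted p = 0.421 in U87, and -0.82, adjusted p = 0.0294 in U118). Without U87 control replicate 2, RAD21 (-0.71) and SMC3 (-0.75) fell short of the fold threshold in U87, and both missed the adjusted p without any 1 of the 3 U87 aggregation libraries, SMC3 also without U87 control replicate 3. In U118 the calls of CTCF (-0.98) and DNMT3B (-0.97) were lost without aggregation replicate 2, and that of NIPBL without aggregation replicate 1 (-0.95) or control replicate 3 (-0.94). Under median-ratio scaling 2 remained called lower in U87 (SMC1A and STAG1) and 2 in U118 (RAD21 and STAG1). In the interaction 0 of the 11 were called (1 higher and 2 lower in U118 at an unadjusted p under 0.05), although SMC1A was called higher under median-ratio scaling.

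Markers of other cell types that carry cadherins were low beside the summed mesenchymal-type genes. The 6 epithelial markers summed to between 3.41 and 4.50 TPM in U118 control and between 11.7 and 22.0 TPM in U118 aggregation libraries, with KRT8 called higher, and to between 9.82 and 13.1 TPM in U87. The 5 neuronal markers summed to between 6.5 and 11.3 TPM in U118 control and between 17.1 and 25.0 TPM in U118 aggregation libraries, with SYP called higher, and to between 11.2 and 23.4 TPM in U87. The 5 endothelial markers stayed between 1.5 and 5.74 TPM in all libraries, with KDR called lower in U118, though not without U118 control replicate 3 (-0.99). SYP passed the U118 filter through the aggregation libraries alone and KDR through the control libraries alone, so both had to differ. The part of these markers in the cadherin results was not tested.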

How the data were processed

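The authors deposited TPM values per gene, a table for each cell line, from mRNA libraries of total RNA. The submitters' processing notes name FastQC 0.11.2, Trimmomatic 0.36, HISAT2 2.0, bedtools 2.26.0 and the build GRCh38, while the quantification tool, the annotation and the strand setting are not given in the sources used here, and no read depth could be given. The members and gene lists were chosen with earlier results of these data known. Groups and replicate numbers came from the sample labels, and no value column was left unused. Symbols and positions came from GENCODE 29 (57836 of 58174 identifiers), and promoters from RefSeq (GRCh38.p14).

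Within each line, limma 3.58.1 (R 4.3.3) was fitted to log2(TPM + 1) for genes at 1 TPM or more in at least 3 of 6 libraries, and an interaction to genes at 1 TPM or more in at least 3 of 12, with a mean-variance trend and Benjamini-Hochberg adjustment over all genes tested. The values came in a separate table for each line, and levels were not tested across lines. Scripts were tested on simulated data. Named members were CDH1, CDH2, CDH3, CDH5, CDH6, CDH11, CDH13 and PCDHGA9, every called member, and every member with a mean of at least 5 TPM in a group, 41 in all. Other members and DSG2 were described for context. Partner genes were named by a fixed set of 10 or because they were called. A further partner list is not reported here. Alternatives were a pseudocount of 0.1, no filter, median-ratio scaling, a minimum mean of 10 TPM, a replicate block, no trend, no fold threshold, leaving out each library and, chosen after seeing the data, TPM without mitochondrial genes.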

Additional observations from a re-analysis of the deposited data

Results flagged for a closer look

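A limma interaction over the 12 libraries picked out 28 members, for which the change from control to aggregation cells differed between U118 and U87 (difference of log2 fold changes, U118 minus U87, on the log2(TPM + 1) scale). Among the beta genes the differences were -2.08 (PCDHB2), -2.63 (PCDHB5), -1.81 (PCDHB7), -2.90 (PCDHB8), -1.17 (PCDHB9), -2.05 (PCDHB10), -1.52 (PCDHB12), -2.32 (PCDHB13), -2.17 (PCDHB14), -3.22 (PCDHB15) and -2.84 (PCDHB16). Among the gamma genes they were -1.42 (PCDHGA1), -3.62 (PCDHGA3), -1.95 (PCDHGA6), -1.74 (PCDHGB1), -1.89 (PCDHGB2) and -3.38 (PCDHGB7). Among the single protocadherins they were -2.83 (PCDH7), -3.69 (PCDH10), -2.43 (PCDH15) and -3.47 (PCDH18). Among the cadherins they were -1.51 (CDH2), 1.22 (CDH3), -2.45 (CDH6), -1.62 (CDH7), -1.38 (CDH10), -4.0 (CDH18) and 1.45 (CDH23). CDH6 and CDH10 were listed at 0 in U87, and CDH10 also in U118 aggregation cells, so their values depend on the pseudocount.

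Of these, 25 stayed past both thresholds whichever of the 12 libraries was left out. PCDHB9 was lost without U87 control replicate 1, U87 aggregation replicate 2 or U118 control replicate 3 (difference -1.36 to -0.96, adjusted p up to 0.0563) and under median-ratio scaling. PCDHGA6 was lost in 6 of the 12 fits, those without U87 control replicates 1 or 3, U87 aggregation replicates 1 or 3, or U118 aggregation replicates 2 or 3 (-2.38 to -1.33, adjusted p up to 0.0700). PCDHGA3 was lost in 9 of the 12, all but those without U87 aggregation replicate 1, U118 control replicate 3 or U118 aggregation replicate 1 (-4.94 to -2.85, adjusted p up to 0.124).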

How the results depend on the processing

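The count of members called lower in U118 (25) moved to 1 when a mean of at least 10 TPM was asked for, since only 5 members were then tested, and the count differing between the lines (28) likewise to 1 of 4 tested. Under the other settings these counts stayed within 1.5 times, from 23 to 28 and from 26 to 30 when a library was left out. The counts of 1 were less firm. Members called higher in U87 were 7 with a pseudocount of 0.1, 0 with a mean of at least 10 TPM (1 at an unadjusted p under 0.05), 2 under median-ratio scaling, 10 without the fold threshold, 2 with TPM without mitochondrial genes and 1 to 3 when a library was left out (2 without control replicate 2 or aggregation replicate 1, 3 without aggregation replicate 2). Members called lower in U87 were 0 with a mean of at least 10 TPM and under median-ratio scaling (1 and 3 at an unadjusted p under 0.05), 2 without the fold threshold and 0 to 2 when a library was left out, 0 being without control replicate 1 and 2 without aggregation replicate 2. Members called higher in U118 were 3 with the pseudocount of 0.1 or without the fold threshold, 0 with a mean of at least 10 TPM (1 at an unadjusted p under 0.05), 2 under median-ratio scaling or without mitochondrial genes, and 1 to 2 when a library was left out (2 without control replicate 2 or aggregation replicates 2 or 3).

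The replicate numbers were not taken to pair the libraries, since same-numbered libraries deviated together by correlations of only -0.067 to 0.011 in U87 and 0.051 to 0.14 in U118, although each U118 library correlated best with its own number. With a replicate block, U87 had 1 member called higher and 2 lower, U118 had 1 higher and 27 lower, and 29 differed between the lines.

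Among members that were not called, signs turned for U87 CDH2 (0.25 under median-ratio scaling, 0.13 without mitochondrial genes, and -0.15 to 0.11 when a library was left out), U87 PCDHB5 (0.013 under median-ratio scaling), U87 PCDHGA4 (0.24 with a pseudocount of 0.1, and -0.63 to 0.73 when a library was left out), U118 CDH11 (0.25 under median-ratio scaling), U118 CDH13 (-0.11 to 0.098 when a library was left out), U118 PCDHGA7 (-1.17 to 0.11 likewise) and U118 PCDHGC3 (0.33 under median-ratio scaling, and -0.38 to 0.010 when a library was left out). The cause was not tested. TPM keeps no depth, so whether members near 0 were undetected or not expressed cannot be said.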
